A study of Mus musculus with 19 samples.

Results

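The regions described here are 802 stretches of open chromatin in mouse forebrain progenitors that were listed in fewer libraries on a retinoic acid diet than off it, in both Foxc1 genotypes. They are 1.79% of 44878 regions built from 19 ATAC-seq libraries. ATAC-seq uses a transposase that inserts adapters into accessible DNA, and a summit is the base where a peak of such insertions is highest. A region was a chain of summits at most 200 bp apart, taken from the 29112 best-scoring summits of each library (the matched set) and present in at least 2 libraries. Members were chosen by measured values: a region was kept when the share of libraries with a summit was at least 0.4 lower in Control+RAdiet than in Control and at least 0.4 lower in Mutant+RAdiet than in Foxc1Mutant.

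All libraries came from Prom1+ cells that were magnetically separated from forebrain at embryonic day 14. The 5 Control+RAdiet libraries were Foxc1 WT with the RA diet, and the 4 Control libraries were Foxc1 WT with no diet. The 6 Mutant+RAdiet libraries were Foxc1 hith/LacZ with the RA diet. The 4 Foxc1Mutant libraries had no diet and are Foxc1 hith/LacZ in their labels, except Foxc1Mutant 1, whose genotype label is Foxc1 WT against its title. The hith allele lowers Foxc1 function and the LacZ allele carries an insertion in the gene. These alleles are present in all cells, and Foxc1 acts mainly in the mesenchyme that forms the meninges, not in the sorted progenitors. Whether the libraries of a group are separate animals is not given, so any p-value reflects variation among these libraries, which may be technical. Groups follow the titles. Without Foxc1Mutant 1, 47.1% of the regions described here still met the rule, so the others depended on a library of uncertain genotype. Such a loss was not particular to that library, since the share was 41.6% without Foxc1Mutant 2. As a check of the labelled cell type, 10 of 13 neural progenitor marker genes had a matched summit within 1 kb of an end in all 19 libraries, and 0 of 13 had none. Of the markers of other cells, such summits in all libraries were found at 1 of 6 endothelial genes (Kdr), 1 of 4 mural genes (Tbx18), 0 of 6 meningeal fibroblast genes, 1 of 6 microglial genes (Irf8) and 0 of 5 erythroid genes. No library had one at 5 endothelial, 1 mural, 2 meningeal fibroblast, 3 microglial and 4 erythroid genes. The rest, among them most of the meningeal fibroblast genes, had one in some libraries.

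Retinoic acid is a vitamin A derivative that binds nuclear receptors already sitting on DNA, and it changes which cofactors they recruit. In the developing forebrain the meninges are a main source of it, and it acts on neighbouring progenitors that line the ventricle. Accessible sites away from gene starts are often enhancers, which raise transcription of genes at a distance. In bulk samples, a site open in fewer cells and a site less open in every cell cannot be told apart.

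Most of the regions lay outside promoters, and 29 of them (3.62%) overlapped an annotated promoter window, which runs from 250 bases before to 50 bases after a start site. The share was 4.71% of the regions gained in both genotypes and 19.7% of all regions. All regions include 13035 with summits in all 19 libraries, which could not meet the rule, and the share without them was not computed. The 5 promoter windows below are shown because their regions had the largest summed drops of those that overlap a promoter. Sequences are from RefSeq (GRCm38.p6), 5′ to 3′ on the strand of the gene. Capitals mark the bases between the first and last matched summit of the region.
Gm26876: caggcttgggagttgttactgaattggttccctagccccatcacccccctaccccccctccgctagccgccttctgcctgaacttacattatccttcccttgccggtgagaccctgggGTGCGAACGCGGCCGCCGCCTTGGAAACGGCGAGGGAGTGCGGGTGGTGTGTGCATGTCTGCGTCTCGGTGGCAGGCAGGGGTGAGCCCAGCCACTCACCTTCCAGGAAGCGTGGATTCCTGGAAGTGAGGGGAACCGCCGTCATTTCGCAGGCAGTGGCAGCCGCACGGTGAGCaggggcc
Pcp4l1: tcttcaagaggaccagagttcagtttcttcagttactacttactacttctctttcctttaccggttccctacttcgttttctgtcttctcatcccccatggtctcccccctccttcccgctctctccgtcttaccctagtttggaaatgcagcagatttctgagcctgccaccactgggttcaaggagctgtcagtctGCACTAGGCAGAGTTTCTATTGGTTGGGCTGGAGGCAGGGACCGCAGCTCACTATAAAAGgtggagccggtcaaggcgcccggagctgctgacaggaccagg
Prkg1: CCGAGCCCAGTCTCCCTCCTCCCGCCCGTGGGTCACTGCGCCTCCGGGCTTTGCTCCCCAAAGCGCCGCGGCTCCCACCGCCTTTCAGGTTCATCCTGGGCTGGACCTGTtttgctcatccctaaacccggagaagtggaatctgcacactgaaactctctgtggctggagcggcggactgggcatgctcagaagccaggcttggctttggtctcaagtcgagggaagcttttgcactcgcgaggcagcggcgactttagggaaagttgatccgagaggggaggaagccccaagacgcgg
Tbc1d22a: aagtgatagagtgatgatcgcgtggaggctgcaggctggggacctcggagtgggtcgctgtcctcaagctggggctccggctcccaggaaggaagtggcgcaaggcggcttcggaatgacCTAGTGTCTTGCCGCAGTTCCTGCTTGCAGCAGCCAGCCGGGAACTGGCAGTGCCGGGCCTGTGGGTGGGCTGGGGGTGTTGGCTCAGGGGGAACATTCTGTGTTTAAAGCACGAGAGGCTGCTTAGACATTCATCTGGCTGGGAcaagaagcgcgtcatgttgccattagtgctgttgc
Cstad: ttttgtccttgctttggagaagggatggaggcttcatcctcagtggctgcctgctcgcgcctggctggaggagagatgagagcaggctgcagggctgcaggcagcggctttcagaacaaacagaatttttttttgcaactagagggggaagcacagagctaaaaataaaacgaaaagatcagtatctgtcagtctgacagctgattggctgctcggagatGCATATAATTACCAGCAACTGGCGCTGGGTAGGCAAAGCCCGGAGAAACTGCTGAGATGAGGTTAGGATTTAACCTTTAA
The window of Gm26876, a predicted gene next to the transcription factor gene Ikzf4, lies at chr10:128645634-128645933 (+ strand). Its region had a matched summit in 2 of 5 Control+RAdiet and 4 of 4 Control libraries, and in 1 of 6 Mutant+RAdiet and 4 of 4 Foxc1Mutant libraries. The window of Pcp4l1, a small protein related to a calmodulin regulator, lies at chr1:171196219-171196518 (- strand), with summits in 3 of 5, 4 of 4, 0 of 6 and 4 of 4 libraries of those groups in the same order. Prkg1, which encodes a cGMP-dependent protein kinase, has its window at chr19:31664321-31664620 (- strand). Its region, at a start site inside the gene and more than 100 kb from either end, was matched in 1 of 5, 3 of 4, 1 of 6 and 4 of 4 libraries. The windows of Tbc1d22a (chr15:86277425-86277724, + strand) and Cstad (chr2:30594794-30595093, + strand) belong to regions with the same counts, 1 of 5, 4 of 4, 2 of 6 and 3 of 4. All 5 regions thus had matched summits in at least 3 of 4 libraries of each group off the diet. At Prkg1 and Tbc1d22a, 2 and 3 of the 11 diet libraries had any deposited summit within 200 bp, whereas 10 of 11 had one at Gm26876 and at Cstad.

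The motifs below were searched on both strands of the 33 promoter windows that the regions overlap. These windows belong to 29 regions and some share bases, so a locus can count more than once. This was so for AGGTCA at Fam241b and for TGGGAA at Ap4m1 and Mcm7. The nuclear receptor half-site AGGTCA occurred in 4 windows (12.1%), against 16.3% of all 32851 windows. TGGGAA, the core bound by the Notch partner Rbpj, occurred in 10 windows (30.3%), against 25.6% of all. ACAATG, a Sox motif, occurred in 2 windows (6.06%), against 12.6%, and the AP-1 motif TGANTCA in 1 window (3.03%), against 7.81%. No window held overlapping matches of different motifs. A match is only a match of letters in these windows.

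The rule used presence, so the levels that follow are a description with no test. Control+RAdiet libraries had a matched summit in 19.95% ± 3.42 (SD, n = 5) of the 802 regions, and Control libraries in 76.4% ± 21.2 (SD, n = 4). Mutant+RAdiet libraries had one in 14.01% ± 5.37 (SD, n = 6), and Foxc1Mutant libraries in 68.1% ± 28.9 (SD, n = 4). By library, the share was 19.3%, 16.7%, 17.0%, 24.7% and 22.1% in Control+RAdiet 1 to 5, and 57.5%, 58.6%, 93.6% and 95.9% in Control 1 to 4. In Mutant+RAdiet 1 to 6 it was 14.8%, 11.5%, 12.6%, 6.73%, 15.5% and 22.9%, against 89.8%, 95.9%, 39.4% and 47.3% in Foxc1Mutant 1 to 4. The shares ran from 6.73% to 24.7% in the diet libraries and from 39.4% to 95.9% off the diet. The rule lets a member have matched summits in at most 3 of 5 Control+RAdiet and 3 of 6 Mutant+RAdiet libraries. It thus keeps the shares on the diet low and close to each other. At least 0.4 lower in presence were 3626 regions (8.08%) for Control+RAdiet against Control and 3190 regions (7.11%) for Mutant+RAdiet against Foxc1Mutant. The 802 shared regions are 22.1% of the control list and 25.1% of the mutant list. The rule was met by 1.79% of regions. A gain of the same size in both genotypes was found at 806 regions (1.8%), which are 22.3% and 29.2% of the lists of gains.

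**Figure D1:**
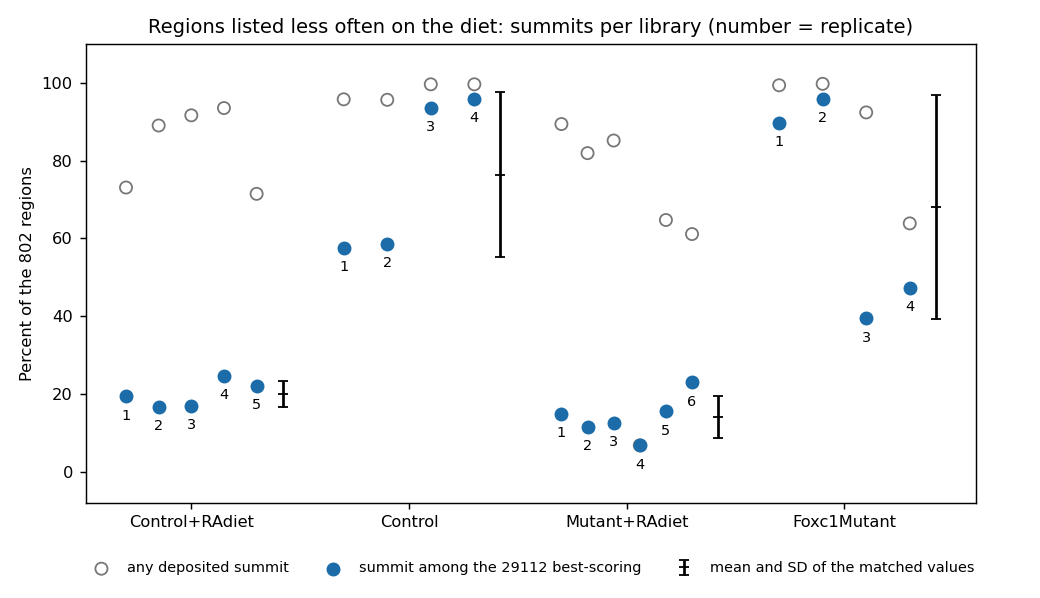
Percent of the 802 regions (y axis) with a summit in each library, by group (x axis). Filled points are matched summits, open points any deposited summit within 200 bp, and bars the mean and SD of the matched values. Control 3, Control 4, Foxc1Mutant 1 and Foxc1Mutant 2 have matched summits at 89.8% to 95.9% of the regions, the other 4 libraries off the diet at 39.4% to 58.6%, and the 11 diet libraries at 6.73% to 24.7%.

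Control 3, Control 4, Foxc1Mutant 1 and Foxc1Mutant 2 stood apart from the other libraries off the diet. Of the 802 regions, 642 (80.0%) had a matched summit in all 4 of these libraries and 0 had one in none of them. In Control 1, Control 2, Foxc1Mutant 3 and Foxc1Mutant 4, all 4 libraries had a summit at 138 regions (17.2%) and none had one at 153 (19.1%). The commonest pattern, at 202 regions, was 0 of 5 Control+RAdiet, 2 of 4 Control, 0 of 6 Mutant+RAdiet and 2 of 4 Foxc1Mutant libraries, and at 153 of these the libraries were the 4 that stood apart. Without those 4, 567 regions met the rule, and 205 of them (25.6% of the 802) were among the regions described here. Without the other 4 libraries off the diet, 2607 met it, including 730 of the 802 (91.0%), and 168 of the 802 met it both ways. Highest scores were 767 to 1121 in the 4 libraries and 106 to 373 in the other 4 off the diet. On the diet they ran from 158 to 965. Control+RAdiet 3 and 4 had 799 and 965, with matched summits at 17.0% and 24.7% of the regions. The role of the scores in the result was not tested. Control 3, Control 4 and Foxc1Mutant 2 shared 82.5% to 83.6% of their matched regions with each other, and Foxc1Mutant 1 shared 74.7% to 76.9% with them. Foxc1Mutant 3 and 4 shared a median of 62.6% with Mutant+RAdiet libraries and 59.9% with Foxc1Mutant 1 and 2. Over all 171 pairs of libraries the share ran over 56.4% to 83.6% with a median of 68.7%.

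**Figure D2:**
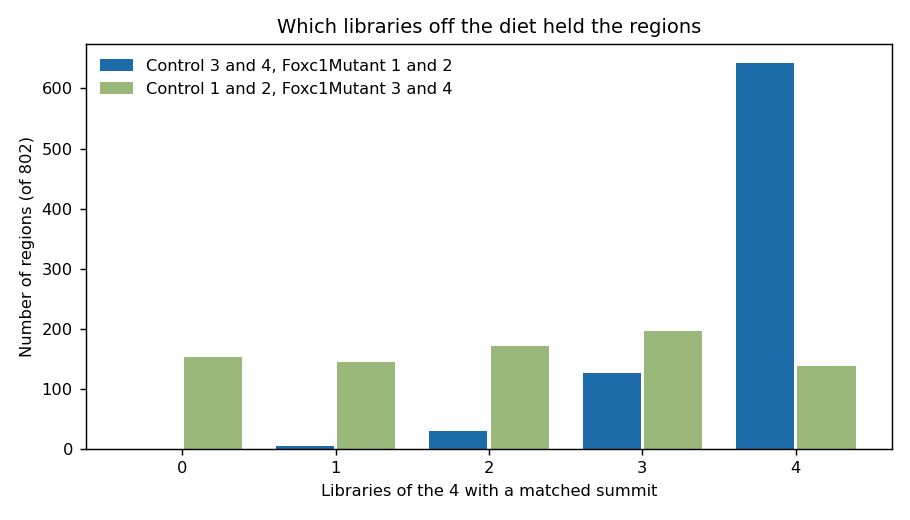
Number of the 802 regions (y axis) by how many libraries of a set of 4 had a matched summit (x axis), for Control 3 and 4 with Foxc1Mutant 1 and 2, and for Control 1 and 2 with Foxc1Mutant 3 and 4. The first set holds 642 regions at 4 of 4, and the second is spread over all counts, with 153 regions at 0 and 138 at 4.

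Sall1, which encodes a zinc finger repressor active in forebrain progenitors, was the nearest gene to the single region with a matched summit in all 8 libraries off the diet and in 0 of the 11 on it. The region lies at chr8:89073066-89073212, 28977 bp from the gene and outside gene bodies. Its best deposited summit ranked 30840, 32634, 45983, 35264 and 33526 in Control+RAdiet 1 to 5, and 28227, 25655, 17568 and 20132 in Control 1 to 4. In Mutant+RAdiet the ranks were 34284 at the lowest, 43348 at the median and 57473 at the highest over 5 libraries, with no summit in Mutant+RAdiet 4, against 19655, 15912, 28002 and 23784 in Foxc1Mutant 1 to 4. Every diet library with a summit thus ranked it beyond 29112, and every library off the diet ranked it within. Ranks come from lists of different lengths, so they place a summit within its own library and measure no change between libraries. In the 2 control groups alone, 29 regions had matched summits in 0 of 5 Control+RAdiet and 4 of 4 Control libraries. In the mutants alone, 8 had them in 0 of 6 Mutant+RAdiet and 4 of 4 Foxc1Mutant libraries.

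The second largest drop was nearest Kit, the receptor for stem cell factor, at chr5:75719035-75719147 and 62369 bp from the gene. Its ranks were 47812, 53763, 58042, 30919 and 35974 in Control+RAdiet 1 to 5, and 27492, 24129, 18117 and 26127 in Control 1 to 4. In Mutant+RAdiet they were 26585 at the lowest, 36374 at the median and 44947 at the highest over 5 libraries, with none in Mutant+RAdiet 4, against 27807, 19272, 24371 and 10293 in Foxc1Mutant 1 to 4. Mutant+RAdiet 2 was thus the 1 diet library with a matched summit there. The third, inside a gene body at chr15:44410551-44410672, was nearest Eny2, a subunit of chromatin and mRNA export complexes, 17471 bp away. Its summit was missing altogether in 3 of 5 Control+RAdiet libraries and ranked 34003 and 44066 in Control+RAdiet 3 and 4. Control 1 had a weaker one at rank 37167 among the Control libraries, whose other ranks were 26944, 28936 and 27376. Mutant+RAdiet 1, 3 and 6 had ranks of 54960, 40655 and 45050 and the other 3 none, against 27524, 28188, 28602 and 28192 in Foxc1Mutant 1 to 4. In 7 of the 8 libraries off the diet the summit lay just within 29112.

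The remaining regions among the 15 with the largest summed drops were nearest Slc14a2, a urea transporter, Adcy2, an adenylate cyclase, Asah2, a ceramidase, Gm6657, Nkain3, Scrg1, Braf, Foxc2, Gdap1, Myt1l and Tenm2, with 1 more whose nearest gene was Trim36 at 203793 bp. Braf is a kinase that relays receptor signals to MAP kinase, Myt1l is a repressor of non-neuronal genes in neurons, and Tenm2 is a synaptic adhesion protein. Distances ran over 1410 bp at Scrg1 to 1364081 bp at Tenm2, where the region sits at chr11:38601034-38601234. Foxc2, a forkhead gene of mesenchyme and a relative of Foxc1, had its region at chr8:121113446-121113474, 2711 bp away. It was matched in 0 of 5 Control+RAdiet and 4 of 4 Control libraries, and in 1 of 6 Mutant+RAdiet and 3 of 4 Foxc1Mutant libraries. No matched summit lay within 1 kb of an end of Foxc2 in any library. Of the 15 regions, 10 also met the rule without the 4 libraries that stood apart, and the Foxc2 region did not. Fewer than 8 of the 11 diet libraries had any deposited summit at 2 of them, near Eny2 (5) and Asah2 (4).

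**Figure D3:**
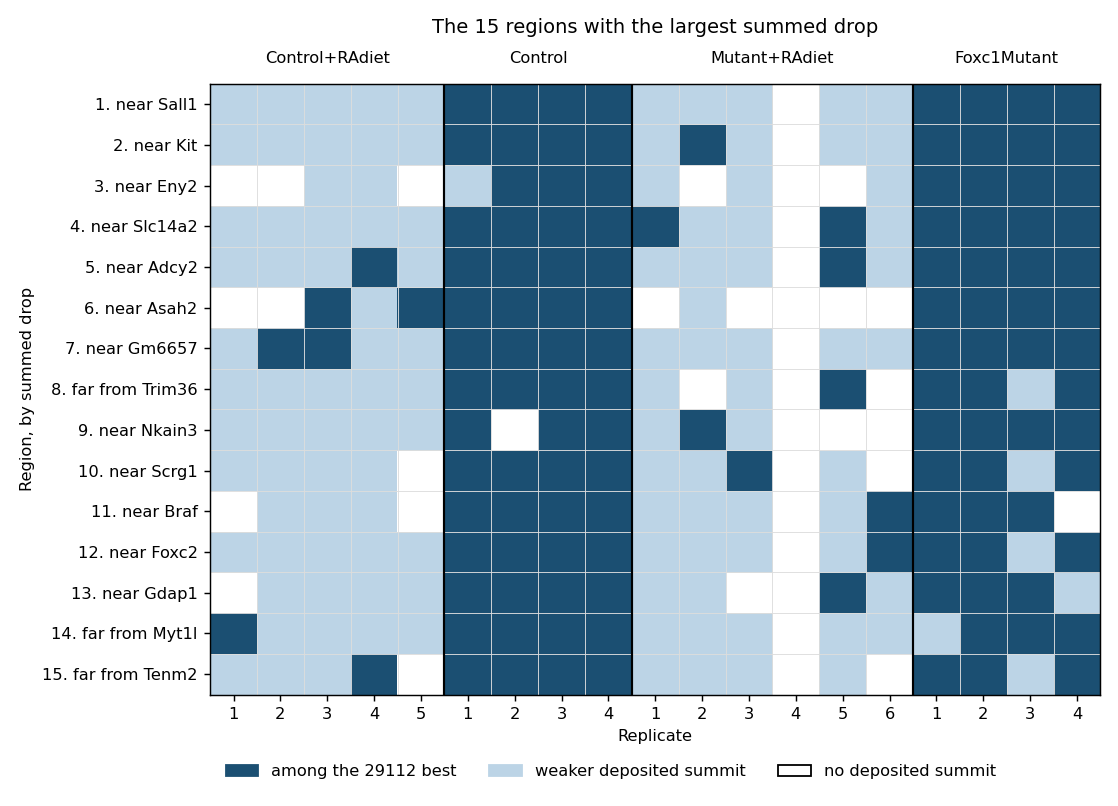
The 15 regions with the largest summed drop (rows, by nearest gene) against the 19 libraries (columns). Cells show a matched summit, only a weaker deposited summit, or none. The columns off the diet are mostly matched, and most unmatched cells on the diet hold a weaker summit, except in Mutant+RAdiet 4, whose whole list is the matched set.

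Lists of genes for the pathways and cell types of the tissue touched few of the regions. Of 1527 regions nearest a listed gene, 23 (1.51%) were among the 802, against 1.79% of all regions. They fell at 21 genes in 13 of 20 lists, and 4 of the 23 met the rule without the 4 libraries that stood apart (Ptch1, Zbtb20, Rgs5 and Epha7). For retinoic acid signalling it was 2 of 104 regions. Meis2, a homeobox gene induced by retinoic acid, had its region at chr2:115852831-115852937, 8380 bp away, with matched summits in 0 of 5 Control+RAdiet, 2 of 4 Control, 0 of 6 Mutant+RAdiet and 4 of 4 Foxc1Mutant libraries. Stra6, the cell-surface receptor for retinol carried by its binding protein, had its region at chr9:58065678-58065764, 1928 bp away, with 2 of 5, 4 of 4, 0 of 6 and 2 of 4. Neither was unmatched in all diet libraries and matched in all others.

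For Notch signalling 1 of 113 regions was included, at Maml3, a coactivator of the Notch intracellular domain (0 of 5, 2 of 4, 0 of 6 and 3 of 4 in Control+RAdiet, Control, Mutant+RAdiet and Foxc1Mutant). For radial glia and neural stem cells it was 5 of 194, at Emx1, Fgfr2, Id4, Slc1a3 and Zbtb20. The summed drop of 1.02 at Emx1 turned to -0.25 with all deposited summits. Fgfr2, a growth factor receptor, had 0 of 5, 2 of 4, 0 of 6 and 3 of 4. Slc1a3, a glutamate transporter of radial glia, had 2 of 5, 4 of 4, 1 of 6 and 3 of 4. Among intermediate progenitor genes 0 of 69 and among ganglionic eminence genes 0 of 83 regions were included. Among projection neuron genes, Tbr1, a transcription factor of deep-layer neurons, had 0 of 5, 3 of 4, 1 of 6 and 3 of 4.

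Gliogenesis genes had 4 of 79 regions (5.06%), at Nfib, Zbtb20 and 2 near Nfia, and the first 2 genes also stand in other lists. Nfia encodes a nuclear factor of the glial switch. Its regions were at chr4:97575633-97575689 (0 of 5, 4 of 4, 0 of 6 and 2 of 4) and chr4:97629039-97629086 (3 of 5, 4 of 4, 0 of 6 and 2 of 4). Hedgehog genes had 1 of 94, at Ptch1, the receptor that is also a target of the pathway, and Wnt and BMP genes 1 of 142, at Tcf7l2. Cortical hem and choroid plexus genes had 1 of 61, at Lmx1a, cell cycle genes 1 of 63, at Cdk1, and axon guidance genes 3 of 198, at Epha7 and Plxna4. The summed drop of 0.9 at Epha7 turned to -0.233 with 14556 summits per library. Markers of other cells had 1 of 30 endothelial regions (Egfl7), 1 of 14 mural (Rgs5), 1 of 30 meningeal fibroblast (Foxc2), 0 of 21 microglial and 0 of 6 erythroid. Chromatin genes had 0 of 92, housekeeping genes 0 of 25 and Hox genes 0 of 6. These counts are small, and no list was tested.

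Of the 802 regions, 618 (77.1%) lay within 100 kb of 1 of 585 protein-coding genes, and 31 of these genes were nearest to 2 or more. Cstad and Ralgapa2 had 3 regions each. Ralgapa2 encodes part of a complex that switches off Ral GTPases. Its 3 regions were matched in 0 or 1 of 5 Control+RAdiet, 2 or 3 of 4 Control, 0 of 6 Mutant+RAdiet and 2 or 3 of 4 Foxc1Mutant libraries. Cd47, the surface signal that blocks engulfment by phagocytes, had 2 regions, with 2 of 5, 4 of 4, 2 of 6 and 4 of 4 at chr16:49965794-49965865 and 3 of 5, 4 of 4, 3 of 6 and 4 of 4 at chr16:49980329-49980411. Grm3, a metabotropic glutamate receptor, had 2 as well, and at neither did a Control+RAdiet library have a matched summit. Among the 15 genes named by this rule, 8 of 32 regions met it without the 4 libraries that stood apart. The ends of 246 of the 585 genes (42.1%) had a matched summit in all 19 libraries, against 51.5% of 14273 genes with a region near them.

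Most of the 802 regions lay more than 10 kb from a gene end. Within 1 kb of a gene end lay 58 (7.23%, 95% Wilson interval 5.64% to 9.24%, counting error only), and at 1 to 10 kb 18.95%, at 10 to 100 kb 50.9% and beyond 100 kb 22.9%. Over all regions, these shares were 26.2%, 17.1%, 37.0% and 19.7%. Since 13035 regions with summits in all 19 libraries could not meet the rule, the remaining regions are the fairer comparison, and 17.1% of them lay within 1 kb. The 806 regions gained in both genotypes had 7.32% within 1 kb. The median distance was 37.2 kb for the 802, 45.3 kb for the gained regions and 16.4 kb for all. Gene bodies held 54.0%, 50.9% and 53.5% of these sets. For regions not in all 19 libraries the median distance was 23.7 kb. Median width was 71 bp, against 140 bp for the gained regions, 88 bp for regions not in all 19 libraries and 97 bp for all. Width spans the matched summits and so follows the number of libraries, whose medians were 7, 9, 8 and 14. The share near gene ends was 11.7% for the 205 regions that met the rule without the 4 libraries that stood apart and 5.70% for the other 597. It was 19.2% for all 567 regions found without those 4 libraries, more than 1.5 times the 7.23%. It was also 23.1% with 14556 summits per library and 11.6% without Foxc1Mutant 2.

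**Figure D4:**
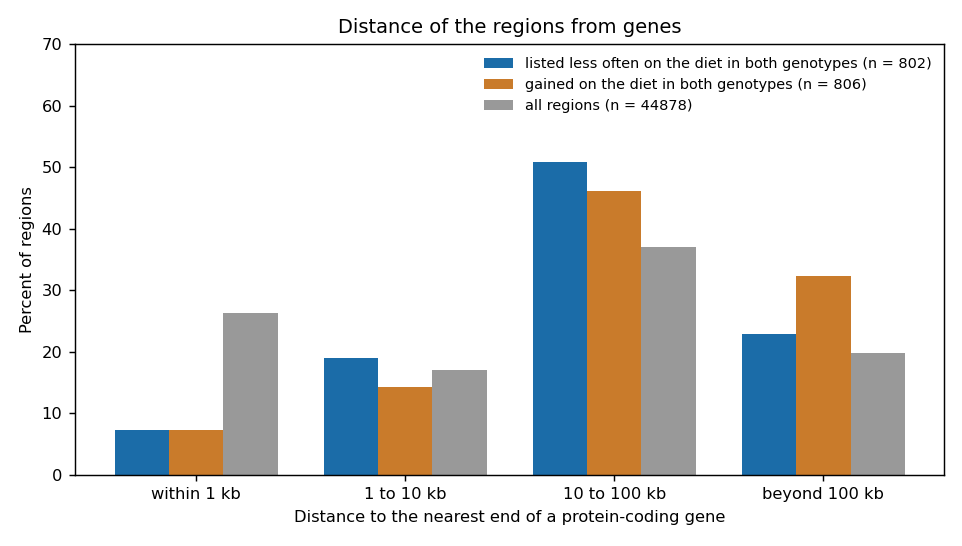
Percent of regions (y axis) in 4 classes of distance to the nearest gene end (x axis), for the 802 regions, the 806 gained in both genotypes and all 44878. The 802 have 7.23% within 1 kb, the gained regions 7.32% and all regions 26.2%.

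Absence in the matched set often went with a weaker summit, so the sites cannot be called lost as a group. Already in the matched set, 503 of the 802 regions had a summit in at least 1 diet library, which the rule allows, and 798 had a deposited summit in at least 1. There were 7348 pairs of a diet library and a region with no matched summit, and 5004 of them (68.1%) had a weaker deposited summit within 200 bp. The share was 42.6% inside the region itself and 75.1% within 1 kb. Off the diet, 1348 of 1781 such pairs did (75.7%). There the share was 31.4% in Foxc1Mutant 4, with 49804 summits, and 87.4% to 94.1% in the other libraries. Mutant+RAdiet 4 has no weaker summits because its whole list is the matched set, and without it the share on the diet was 75.8%. Among the diet libraries that remain, it ran from 49.5% to 91.4%. Any deposited summit was found at 83.7% ± 10.6 (SD, n = 5) of the regions in Control+RAdiet and 97.7% ± 2.27 (SD, n = 4) in Control. It was found at 64.8% ± 30.7 (SD, n = 6) in Mutant+RAdiet and 88.8% ± 17.0 (SD, n = 4) in Foxc1Mutant. List lengths moved with this, with 77804 ± 13693 (SD, n = 5) summits in Control+RAdiet and 98555 ± 22068 (SD, n = 4) in Control, and 63769 ± 23749 (SD, n = 6) in Mutant+RAdiet and 95379 ± 30545 (SD, n = 4) in Foxc1Mutant. At an equal length of 48323 summits, the shares were 72.1% ± 8.70 (SD, n = 5) in Control+RAdiet and 94.8% ± 5.63 (SD, n = 4) in Control. They were 66.7% ± 6.83 (SD, n = 5, without Mutant+RAdiet 4) in Mutant+RAdiet and 81.2% ± 21.1 (SD, n = 4) in Foxc1Mutant. The diet groups thus stayed lower, by less than with 29112 summits per library. In controls the gap was wider than for any deposited summit.

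Matched summits of the regions ranked low even off the diet, with median ranks of 21700 to 24081 among 29112 in the 8 libraries. At 14556 summits per library, 1.10% ± 0.163 (SD, n = 5) of the regions had one in Control+RAdiet and 4.71% ± 2.93 (SD, n = 4) in Control, and 1.14% ± 0.770 (SD, n = 6) in Mutant+RAdiet and 5.46% ± 2.14 (SD, n = 4) in Foxc1Mutant. Most of the 802 lay near the end of each matched list rather than among its strongest summits.

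At least 8 of the 11 diet libraries had some deposited summit at 570 regions (71.1%), at most 3 had one at 52 (6.48%). The 4 regions with none were chosen after their values were seen. One lay 55 bp from an end of Bhlhe40, a circadian repressor, at chr6:108660468-108660680. Its ranks off the diet were 20708 in Control 3, 14131 in Control 4, 8497 in Foxc1Mutant 3 and 22709 in Foxc1Mutant 4. One lay inside Tead1, a transcription factor of the Hippo pathway, at chr7:112841101-112841262. One lay inside Sox6, a factor of progenitors and interneurons, at chr7:115825460-115825498, and 1 was 31989 bp from Pja2, a ubiquitin ligase, at chr17:64363852-64363893.

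At 24 of the 802 regions (2.99%) a region gained in both genotypes lay within 1 kb, and so it did at 0.216% of all regions that were not gained. Among those not in all 19 libraries it was 0.303%, and both backgrounds include the 802. At 14 of the 24 the gap was under 500 bp, so chaining at 500 bp could join them into 1 region. At Tead1 the gained region was 710 bp away, with matched summits in 5 of 5 Control+RAdiet, 2 of 4 Control, 6 of 6 Mutant+RAdiet and 1 of 4 Foxc1Mutant libraries. The region that dropped had them in 0 of 5, 2 of 4, 0 of 6 and 3 of 4. At Gng8, a G protein subunit, the gained region was 326 bp away with 4 of 5, 1 of 4, 6 of 6 and 1 of 4, against 1 of 5, 3 of 4, 0 of 6 and 3 of 4 in the region that dropped. At the Prkg1 promoter region shown above the gap was 250 bp, and the gained region had 4 of 5, 1 of 4, 5 of 6 and 0 of 4. At each of these 24 places, 1 region was listed less often on the diet and its neighbour more often. Six2, Nell2, Dtl and Lrba had such neighbours too.

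Genotype was not part of the rule, and presence was tested between mutants and controls within diet by a two-sided exact test stratified on diet, with Benjamini-Hochberg adjustment over all 44878 regions. At adjusted p below 0.05 it called 0 regions (0%), and 0 of the 802. At unadjusted p below 0.05, it found 273 regions higher in mutants (0.608%), 2 of them among the 802 (0.249%), and 478 lower in mutants (1.07%), 31 of them among the 802 (3.87%). The lowest p among the 802 was 0.013 in this exact test (adjusted p = 1), shared by 10 regions with matched summits in 0 of 6 Mutant+RAdiet, 3 of 5 Control+RAdiet, 2 of 4 Foxc1Mutant and 4 of 4 Control libraries. They include the second Nfia region and regions near Lhx5, a LIM homeobox gene, Nmnat2, Mark1, Lamtor5, Pink1 and Atrnl1. The 2 regions higher in mutants were near Cypt12 and Nr4a3, each with exact p = 0.039 (adjusted p = 1). The rule bounds the counts of its members, and 0.013 is the smallest p it allows, so the test could call none of the 802 and shows nothing about genotype there.

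Just inside the rule, 138 regions had a control drop of 0.4 and 129 a mutant drop of 0.417, and 44 had both. Just outside it, 116 regions that met the rule in mutants had a control drop of 0.35, and 386 that met it in controls had a mutant drop of 0.333. A drop is Control minus Control+RAdiet, or Foxc1Mutant minus Mutant+RAdiet, in share of libraries, and it moves in steps of single libraries. Medians were 0.5 for both genotypes. The count also depended on single libraries. Without Foxc1Mutant 2, 372 regions met the rule, of which 334 were among the 802, and 1040 met it without Foxc1Mutant 3. Without Foxc1Mutant 1, 453 met it, with 378 of the 802 (47.1%). Foxc1Mutant 1 is the library labelled Foxc1 WT against its title. At the rest of the 802, the drop in both genotypes thus depended on a library of uncertain genotype. Grouping that library by its label was not tested.

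**Figure D5:**
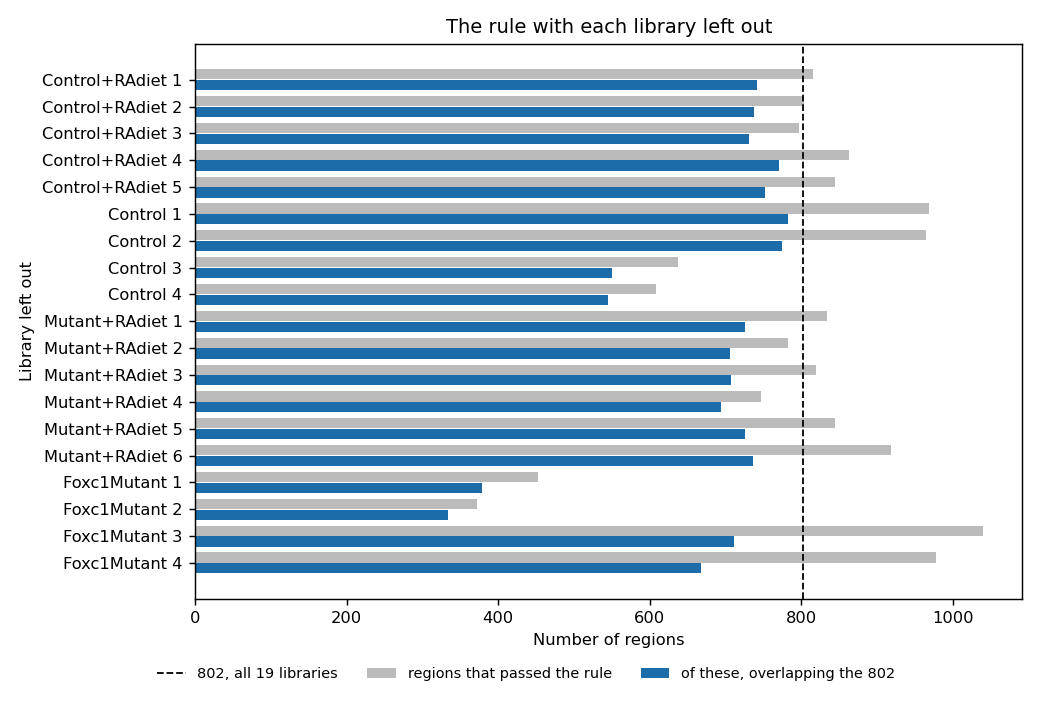
Number of regions (x axis) with each of the 19 libraries left out in turn (y axis). Grey bars are all regions that meet the rule, blue bars those that overlap the 802, and the dashed line marks 802. The counts run over 372 without Foxc1Mutant 2 to 1040 without Foxc1Mutant 3, against 802 with all libraries.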

How the data were processed

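In all, 19 ATAC-seq libraries were analysed, 1 summit list each. Per the submitters' processing notes, BWA, MACS2, Signac and DiffBind and the builds mm10 and GRCm38 were used; versions are not given in the sources used here. The value used is the −log10 q score that the authors deposited per summit, at least about 1.30 (a q of 0.05); it was not scaled between libraries. Scores only ranked summits within a library. Read counts were not used here, so depth is unknown and the list length (29112 to 122591) limits precision.

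The 29112 best summits of each library were chained and the rule applied in whole-number arithmetic with Python 3.11.15, numpy 2.4.6, scipy 1.17.1 and pandas 2.3.3. Genes were 21887 protein-coding genes of GRCm38.p6, with no strand, so both ends were used. Named regions were the 15 with the largest summed drops, those nearest a gene of the 20 lists, those of up to 15 genes with several regions, and those within 1 kb of a gene end among the 30 largest drops (0 found). Alternatives were other list lengths, chaining, thresholds and left-out libraries. The genotype test was tested on simulated data. A result of the projection neuron list is not reported here. The members and lists were chosen with earlier results of these data known.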

Additional observations from a re-analysis of the deposited data

Results flagged for a closer look

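Of 20 checks of a summary within a group, 3 had 1 library far from the others; chance gives about 1 in 20. Foxc1Mutant 4 had 49804 deposited summits, the lowest of its group. It also had a weaker summit at 31.4% of the regions where it had no matched one, below the 87.4% to 93.9% of Foxc1Mutant 1 to 3. Mutant+RAdiet 4 had any deposited summit at 6.73% of the 802 regions, below the 61.1% to 89.4% of the other 5 libraries of its group; its whole list is the matched set.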

How the results depend on the processing

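The number of regions, 802, was 351 with 14556 summits per library, 9323 with all deposited summits, 1307 with the shortest list left out and 48323 summits per library, 48 with drops of at least 0.6, and 2607 without Control 1, Control 2, Foxc1Mutant 3 and Foxc1Mutant 4 (chosen after seeing the data). With 1 library left out it ran over 372 to 1040. It was 579 with drops of at least 0.5, and 839 or 772 with chaining at 100 or 500 bp. With replicate numbers 1 to 4 alone it was 1163, 714 of them among the 802. That setting left out Control+RAdiet 5, Mutant+RAdiet 5 and Mutant+RAdiet 6 and used the same rule without pairing. The values do not settle whether replicate numbers pair the samples. Correlations of the 17 same-number pairs ran over -0.209 to 0.143, 3 of them over 0.1, and in 7 of the 17 the own number was the best match. The genotype test called 0 regions at adjusted p below 0.05 in each setting run, which says nothing of stability for the test off the diet alone, whose smallest possible exact p is 0.0286, or for the 802. The tests on the diet alone and with the replicate block compare fewer libraries or pairs. Their smallest possible p is thus larger than that of the full test, and their 0 says little of stability too. At unadjusted p below 0.05 the exact test found 751 regions, and 162 with the replicate block. The share within 1 kb of a gene end was 23.1% at 14556 summits, 4.35% with all summits, 4.97% at 48323, 10.1% with chaining at 100 bp, 11.1% within 2 kb, 4.61% with start sites alone and 19.2% without Control 3, Control 4, Foxc1Mutant 1 and Foxc1Mutant 2 (chosen after seeing the data); with 1 library left out it was 6.00% to 11.6%. The share of unmatched pairs on the diet with a weaker summit was 34.8% at 48323 summits and 0% with all summits, where none can be weaker, and 65.4% to 75.1% with 1 library left out. Among 211 values of the 68 named regions, 145 moved by less than the spread between replicates, 60 moved further and 6 reversed. Most of the 145 are the lowest and highest values with 1 library left out, a small change, so they say little of stability. With all deposited summits, the summed drop moved further at 56 of the 68 regions, and it was 0.167 at the Sall1, Kit and Foxc2 regions. It also reversed there, to -0.25 at Emx1 and -0.0833 at regions near Dennd2a, Erg28 and Hhipl1. With 14556 summits, it reversed to -0.233 at Epha7 and -0.283 at a Braf region. The causes were not tested. List length and unknown read depth limit all these values.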

Other observations

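Among the 802 regions, 2 had Sox2, the progenitor transcription factor, as nearest gene beyond 100 kb. The region at chr3:34486825-34486905, 163130 bp away, had matched summits in 3 of 5 Control+RAdiet, 4 of 4 Control, 2 of 6 Mutant+RAdiet and 4 of 4 Foxc1Mutant libraries. The region at chr3:34950041-34950123, 297621 bp away, had 0 of 5, 2 of 4, 1 of 6 and 3 of 4.

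The region at chr5:138171881-138172031 overlaps a promoter of Mcm7 and Ap4m1 and lies 6063 to 6477 bp from the microRNA genes Mir106b, Mir93 and Mir25. It was matched in 3 of 5 Control+RAdiet, 4 of 4 Control, 3 of 6 Mutant+RAdiet and 4 of 4 Foxc1Mutant libraries. On the X chromosome lay 7 of the 802 regions (0.873%), against 2.26% of all regions.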
